A study of Mus musculus with 6 samples.

Results

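Branched-chain amino acid (BCAA) catabolism was followed through 10 genes in gonadal white adipose tissue (gWAT), the fat pad beside the reproductive organs. The genes were Bcat2, Bckdha, Bckdhb, Dbt, Bckdk, Ivd, Mccc1, Hibch, Pcca and Pccb. They were taken by symbol, through the NCBI gene identifier of each row, from a table of 19790 genes, and all 10 were found. RNA-seq counts were available for 6 C57BL/6 mice labelled Wild-type, 3 on normal chow (NCD) and 3 on high-fat food (HFD), each diet for 8 weeks, with 1 library per mouse. The labels put the start of feeding at 6 weeks of age, and the methods put it later. The methods describe male mice and also use WT for Tmem86a flox/flox mice without adipoq-Cre, so the exact line behind the Wild-type label was not given.

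Leucine, isoleucine and valine are broken down in mitochondria by a shared start and 3 separate ends. A mitochondrial aminotransferase, encoded by Bcat2, turns them into branched-chain keto acids, and the branched-chain keto acid dehydrogenase complex (BCKDH) then removes a carboxyl group in an irreversible step that is switched off by a kinase and on by a phosphatase. The products enter branches of their own, of which leucine ends in acetyl-CoA and acetoacetate, valine in propionyl-CoA, and isoleucine in acetyl-CoA and propionyl-CoA. White fat is known as a tissue with an active pathway, and mature adipocytes use the carbon for energy and for fatty acid synthesis.

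The libraries held 49575113 to 66360046 counts. The chow libraries also held RNA of the seminal vesicle, a gland that lies next to this fat pad in male mice. NCD replicates 1 to 3 had 58.6%, 11.2% and 2.30% of their counts on its 11 secretory genes, and each HFD library had 8 counts or fewer, where 9 or 10 of the 11 were at 0. The summed level of 10 adipocyte markers was 6699 CPM, counts scaled to the library total, in NCD replicate 1, 29261 and 37404 in the other chow mice, and 14422 to 22715 in the HFD mice, so the labelled tissue was found in every library, with the lowest level in NCD replicate 1. Summed smooth muscle markers (8 genes) were at 6747, 826 and 279 CPM on NCD and 258 to 358 CPM on HFD, and epithelial markers (10 genes) at 1586, 176 and 45.0 CPM on NCD and 35.0 to 145 CPM on HFD. All CPM values here were further scaled by TMM, which lines up the bulk of genes between libraries. Because of the seminal vesicle RNA, the edgeR test was run with 6 mice and again without NCD replicate 1. Both fits are given for each of the 10 genes, and for many other genes only a fit that called them is printed. In whole tissue, fewer cells of a type and less RNA per cell cannot be told apart.

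All 10 genes had lower fitted levels on HFD, and 5 of them, Bcat2, Bckdha, Bckdk, Ivd and Pccb, fell past an adjusted p of 0.05 in edgeR's quasi-likelihood test with 6 mice. Over all 15241 genes tested, 1.9% were called lower and 5.58% higher. Without NCD replicate 1 all 10 genes fell, where 10.1% of 15510 genes were called lower and 10.7% higher. The median log2 fold change (HFD over NCD) of the 10 was -1.33 with 6 mice and -1.41 without NCD replicate 1, beside -0.08 and 0.02 over all genes. The HFD mice lay below every NCD mouse for 8 of the 10 genes with 6 mice, where 18.7% of all genes did so, and for all 10 without NCD replicate 1, where 29.1% did. The 5 calls with 6 mice were all lost on leaving out any mouse other than NCD replicate 1, while the fitted log2 fold changes of those 5 genes were -1.69 to -1.04 in these fits. Of the 10 genes, 8 had an unadjusted p under 0.05 with 6 mice and in each of these fits, beside 13.7% of all genes with 6 mice and 6.83% to 13.5% in these fits that were lower at that p. With 6 mice, DESeq2 called 8 of the 10 lower, where it called 11.5% of all genes lower. Scaling each library to the adipocyte markers instead of TMM left 0 edgeR calls among the 10 with 6 mice, where 0.118% of all genes were called lower and 22 were called in either direction. The median log2 fold change of the 10 was then -1.45, and 2 of them had an unadjusted p under 0.05, beside 6.27% of all genes. Without NCD replicate 1 that scaling left 1 call, Mccc1 (log2 fold change -1.24, adjusted p = 0.0130, edgeR), where 2.83% of all genes were called lower, and the median of the 10 was -0.69.

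Markers of other cell types were compared beside the catabolism genes. Of 8 macrophage markers, 5 were called higher with 6 mice and 8 without NCD replicate 1, and their summed level was 405 to 882 CPM on NCD and 2465 to 3943 CPM on HFD. Of 6 stromal markers, 1 was called higher with 6 mice, Col1a1 (log2 fold change 2.11, adjusted p = 0.0194, edgeR), and Col3a1 was also called without NCD replicate 1 (1.34, adjusted p = 0.0304, edgeR). The other markers of this list were called by edgeR in neither fit. Of the 6, 4 had an unadjusted p under 0.05 in edgeR with 6 mice. DESeq2 and limma voom with sample quality weights each called 4 of the 6 higher with 6 mice. They also called all 8 macrophage markers higher, beside 2153 (DESeq2) and 2823 (voom) of 15241 genes. Pdgfra and Pi16 had higher fitted levels (0.73 and 1.27 with 6 mice), and Dcn and Dpt lower ones (-0.18 and -0.03, or -0.43 and -0.38 without NCD replicate 1). The summed stromal level was 1037, 2350 and 1943 CPM on NCD and 3673, 4529 and 2898 CPM on HFD. Col3a1 alone held 367, 966 and 865 CPM of it on NCD and 2162, 2904 and 1797 CPM on HFD. The part of these cells in the lower levels of the 10 genes was not tested.

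**Figure D1:**
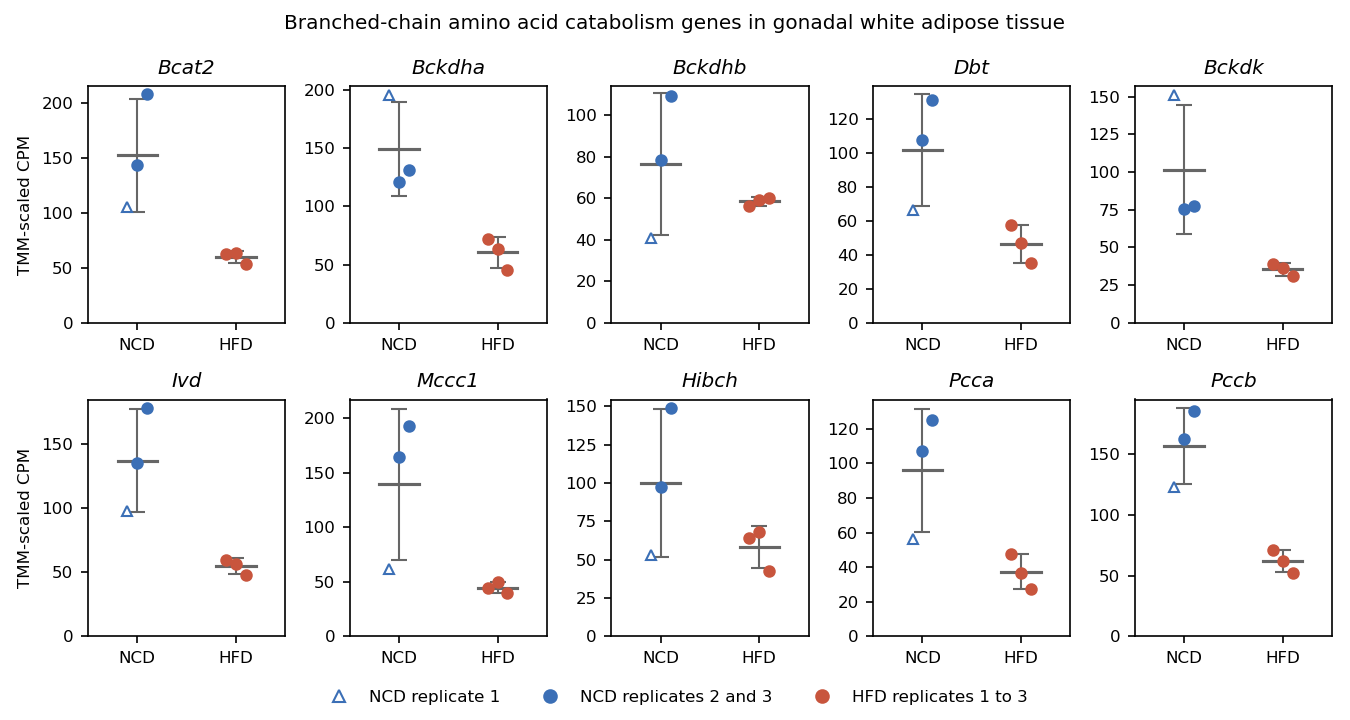
TMM-scaled CPM (y axes, from 0) of the 10 catabolism genes in each mouse by diet, with horizontal lines for the mean and bars for the SD of 3 mice; open triangles mark NCD replicate 1. The HFD points lie below all NCD points for 8 genes, while for Bckdhb and Hibch NCD replicate 1 lies among or under the HFD mice.

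Bcat2 (NCBI Gene 12036, chr7:45568967-45589710 in GRCm38.p6) encodes the mitochondrial aminotransferase that starts the pathway. It was measured at 106, 144 and 208 CPM in NCD replicates 1 to 3 and at 62.7, 63.5 and 53.3 CPM in HFD replicates 1 to 3. The HFD mice were close to each other and all lay below the chow mice. The HFD mean was 39.3% of the NCD mean, with a log2 fold change of -1.35 ± 0.271 (SE, n = 3 per diet, adjusted p = 0.0417, edgeR). Without NCD replicate 1 it was -1.54 ± 0.189 (adjusted p = 0.00833, edgeR). On the opposite strand 0610005C13Rik covers 508 bases of the Bcat2 exons, and it had 31 counts over all 6 libraries.

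Of the 3 genes of the BCKDH core, 1 was called lower with 6 mice and all 3 without NCD replicate 1. Bckdha (NCBI Gene 12039, chr7:25629852-25658782) encodes the alpha subunit of E1, the decarboxylase, which is also the subunit that the kinase phosphorylates. Its levels were 196, 121 and 131 CPM in the NCD mice and 72.3, 63.6 and 45.5 CPM in the HFD mice. NCD replicate 1 was the highest of all, and the diets did not overlap. The log2 fold change was -1.30 ± 0.271 (SE, adjusted p = 0.0447, edgeR), and -1.05 ± 0.204 without NCD replicate 1 (adjusted p = 0.0225, edgeR).

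Bckdhb (NCBI Gene 12040, chr9:83925111-84124240) encodes the beta subunit of E1. It was measured at 41.0, 78.4 and 109 CPM in the NCD mice and at 56.1, 59.1 and 60.3 CPM in the HFD mice, which were the tightest of any of the 10 genes (SD 2.18 CPM). NCD replicate 1 lay below all HFD mice and the other chow mice above them. This gene had the smallest difference of the 10, at -0.38 ± 0.344 (SE, adjusted p = 0.484, edgeR) with 6 mice, which was not called, and -0.67 ± 0.167 without NCD replicate 1 (adjusted p = 0.0418, edgeR). It was also the only one of the 10 whose fitted sign turned in any of 21 alternative settings, at 0.12 when the libraries other than NCD replicate 1 were scaled to the adipocyte markers.

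Dbt (NCBI Gene 13171, chr3:116513070-116549981) encodes E2, the transacylase that forms the core of the complex. Its levels were 66.3, 107 and 131 CPM on NCD and 57.6, 47.0 and 35.2 CPM on HFD, without overlap, though NCD replicate 1 and HFD replicate 1 were close. The difference of -1.12 ± 0.309 (SE, adjusted p = 0.0768, edgeR) was not called with 6 mice and was called without NCD replicate 1 (-1.34 ± 0.222, adjusted p = 0.0151, edgeR). Dld, which encodes the E3 subunit shared with other dehydrogenase complexes, was at 138, 263 and 325 CPM on NCD and 139, 120 and 113 CPM on HFD. Its log2 fold change was -0.97 (adjusted p = 0.119, edgeR) with 6 mice and -1.23 (adjusted p = 0.00903, edgeR) without NCD replicate 1.

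Both opposing regulators of BCKDH were measured. Bckdk (NCBI Gene 12041, chr7:127904073-127909664), the kinase that inactivates the complex, was at 151, 75.7 and 77.7 CPM in the NCD mice and 39.3, 36.6 and 30.8 CPM in the HFD mice. As for Bckdha, NCD replicate 1 stood highest, and the other chow mice were almost equal. The log2 fold change was -1.51 ± 0.312 (SE, adjusted p = 0.0435, edgeR) with 6 mice and -1.10 ± 0.130 (adjusted p = 0.00786, edgeR) without NCD replicate 1. Ppm1k, the phosphatase that reactivates the complex, was at 17.3, 12.0 and 19.0 CPM on NCD and 13.8, 14.4 and 13.7 CPM on HFD. The diets overlapped, with a log2 fold change of -0.20 ± 0.213 (SE, adjusted p = 0.549, edgeR), and -0.14 ± 0.219 without NCD replicate 1 (adjusted p = 0.688, edgeR).

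The leucine branch was represented by Ivd and Mccc1. Ivd (NCBI Gene 56357, chr2:118861959-118882909), isovaleryl-CoA dehydrogenase, takes the first step of this branch. It fell from 97.6, 135 and 178 CPM in the NCD mice to 59.8, 56.2 and 47.8 CPM in the HFD mice, a log2 fold change of -1.33 ± 0.25 (SE, adjusted p = 0.0360, edgeR). The value was -1.51 ± 0.169 without NCD replicate 1 (adjusted p = 0.00703, edgeR).

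Mccc1 (NCBI Gene 72039, chr3:35956292-36000694) encodes the biotin-carrying alpha subunit of methylcrotonyl-CoA carboxylase, the enzyme that acts on the product of Ivd. Its levels were 61.3, 164 and 193 CPM on NCD and 44.7, 49.7 and 39.5 CPM on HFD. The chow mice were far apart, and all were above the HFD mice. Its difference was the largest of the 10, at -1.64 ± 0.423 (SE, adjusted p = 0.0675, edgeR) with 6 mice, not called, and -1.99 ± 0.147 without NCD replicate 1 (adjusted p = 0.00544, edgeR). The HFD mean was then 25.0% of the mean of NCD replicates 2 and 3.

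Hibch (NCBI Gene 227095, chr1:52845038-52920986), the 3-hydroxyisobutyryl-CoA hydrolase of the valine branch, was at 53.1, 97.5 and 149 CPM in the NCD mice and 64.3, 67.8 and 42.4 CPM in the HFD mice. NCD replicate 1 lay between the HFD mice, so the diets overlapped. The difference was -0.78 ± 0.399 (SE, adjusted p = 0.245, edgeR), and -1.07 ± 0.269 without NCD replicate 1 (adjusted p = 0.0427, edgeR), the weakest call of the 10 in that fit.

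Pcca and Pccb encode the alpha and beta subunits of propionyl-CoA carboxylase, which passes on the propionyl-CoA of isoleucine and valine. Pcca (NCBI Gene 110821, chr14:122484365-122889944) was at 56.4, 107 and 125 CPM on NCD and 47.7, 36.8 and 27.5 CPM on HFD. The difference was -1.36 ± 0.353 (SE, adjusted p = 0.0680, edgeR), and -1.62 ± 0.234 without NCD replicate 1 (adjusted p = 0.0112, edgeR). Pccb (NCBI Gene 66904, chr9:100982032-101034940) was at 123, 162 and 185 CPM on NCD and 70.8, 62.5 and 52.6 CPM on HFD. It had the smallest SE and the lowest adjusted p of the 10 with 6 mice (-1.34 ± 0.214, adjusted p = 0.0256, edgeR), and fell by 1.47 ± 0.158 on the log2 scale without NCD replicate 1 (adjusted p = 0.00667, edgeR). Neither gene's diets overlapped.

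Within a diet the genes shared an order of mice. Among the NCD mice 8 of the 10 were lowest in replicate 1 and 8 were highest in replicate 3, and the exceptions were Bckdha and Bckdk, highest in replicate 1. Among the HFD mice 9 were lowest in replicate 3, all but Bckdhb. The adipocyte marker sum had the same order, lowest in NCD replicate 1 among the chow mice and in HFD replicate 3 among the HFD mice, and the part of this order in the results was not tested beyond the ratios to the markers given further on. The summed macrophage, stromal and mitochondrial genes were also lowest in NCD replicate 1 among the chow mice. The share of all genes with this order was not computed.

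Per length, the genes sat within a narrow range. As FPKM, computed here as the TMM-scaled CPM divided by the exon length in kilobases, the NCD means ran from 78.7 for Bckdha and 67.6 for Pccb through 61.2 for Bcat2, 56.8 for Mccc1, 53.6 for Hibch, 47.3 for Bckdhb, 37.3 for Ivd and 37.1 for Pcca to 30.8 for Dbt and 29.1 for Bckdk. The SDs were 9.93 to 28.1 FPKM, larger than each step to the next gene. Only Hibch over Bckdhb and Pcca over Dbt held in every NCD mouse by more than the SD of that log2 ratio. Bckdha was at 103 FPKM in NCD replicate 1 and at 63.6 and 69.2 in the other chow mice. Without NCD replicate 1 the order began with Pccb at 74.9, Mccc1 at 72.7, Bcat2 at 70.6 and Bckdha at 66.4 FPKM. The steps from Pccb to Mccc1, Hibch to Bckdhb, Bckdhb to Pcca, Ivd to Dbt and Dbt to Bckdk then held. On HFD the order began with Bckdhb at 36.3 ± 1.35 FPKM (SD, n = 3), followed by Bckdha at 31.9, Hibch at 31.2, Pccb at 26.7, Bcat2 at 24.0, Mccc1 at 18.2, Ivd at 14.9, Pcca at 14.4 and Dbt at 14.1, and it ended with Bckdk at 10.2 ± 1.24. By mean FPKM Bckdhb was at rank 6 on NCD and rank 1 on HFD, but its HFD level was not separated from those of Bckdha and Hibch beyond their spread. By the same measure the steps from Pccb to Bcat2, Bcat2 to Mccc1, Mccc1 to Ivd and Dbt to Bckdk held in every HFD mouse, and the others did not. Bckdk had the lowest mean on both diets.

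Ratios of 2 genes within a mouse do not depend on how the library was scaled. Of 8 pairs compared with an exact permutation test over mice, whose smallest two-sided p with 3 mice against 3 is 0.1, none could pass 0.05. The ratio of the kinase to the phosphatase, Bckdk to Ppm1k, was 13.9, 10.1 and 6.52 per exon length in the NCD mice and 4.54, 4.05 and 3.57 in the HFD mice. It was lower in every HFD mouse, with a log2 difference of -1.27 (exact p = 0.1, adjusted over the 8 pairs 0.4), or -1.01 without NCD replicate 1. Bcat2 exceeded its cytosolic counterpart Bcat1 832-, 241- and 386-fold per exon length in the NCD mice and 34.7-, 34.6- and 24.0-fold in the HFD mice. This log2 ratio differed by -3.80 (exact p = 0.1, adjusted 0.4), or -3.31 without NCD replicate 1, again with no overlap. Bcat1 was low on NCD, at 0.426, 2.01 and 1.81 CPM, so these ratios rest on a low denominator, the lowest in NCD replicate 1.

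The subunit ratios moved less. Bckdha to Bckdhb, both subunits of E1, was 4.05 in NCD replicate 1, 1.31 and 1.02 in the other chow mice and 1.10, 0.915 and 0.641 in the HFD mice, a log2 difference of -1.03 (exact p = 0.2), or -0.42 without NCD replicate 1, with overlap. Bckdk to Bckdha differed by -0.15 (exact p = 0.4). For Pcca to Pccb the difference was 0.01 (exact p = 0.9), and for Mccc1 to Mccc2 it was -0.05 (exact p = 0.9). Dbt to Bckdha differed by 0.20 (exact p = 1) and Dld to Bckdha by 0.41 (exact p = 0.8), and the sign of both turned without NCD replicate 1, to -0.29 and -0.16, as did that of Pcca to Pccb, to -0.17. All p-values here are two-sided, and these pairs overlapped between the diets with 6 mice. Without NCD replicate 1, Dbt to Bckdha and Mccc1 to Mccc2 (then -0.37) did not overlap, and the other pairs of this paragraph did.

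**Figure D2:**
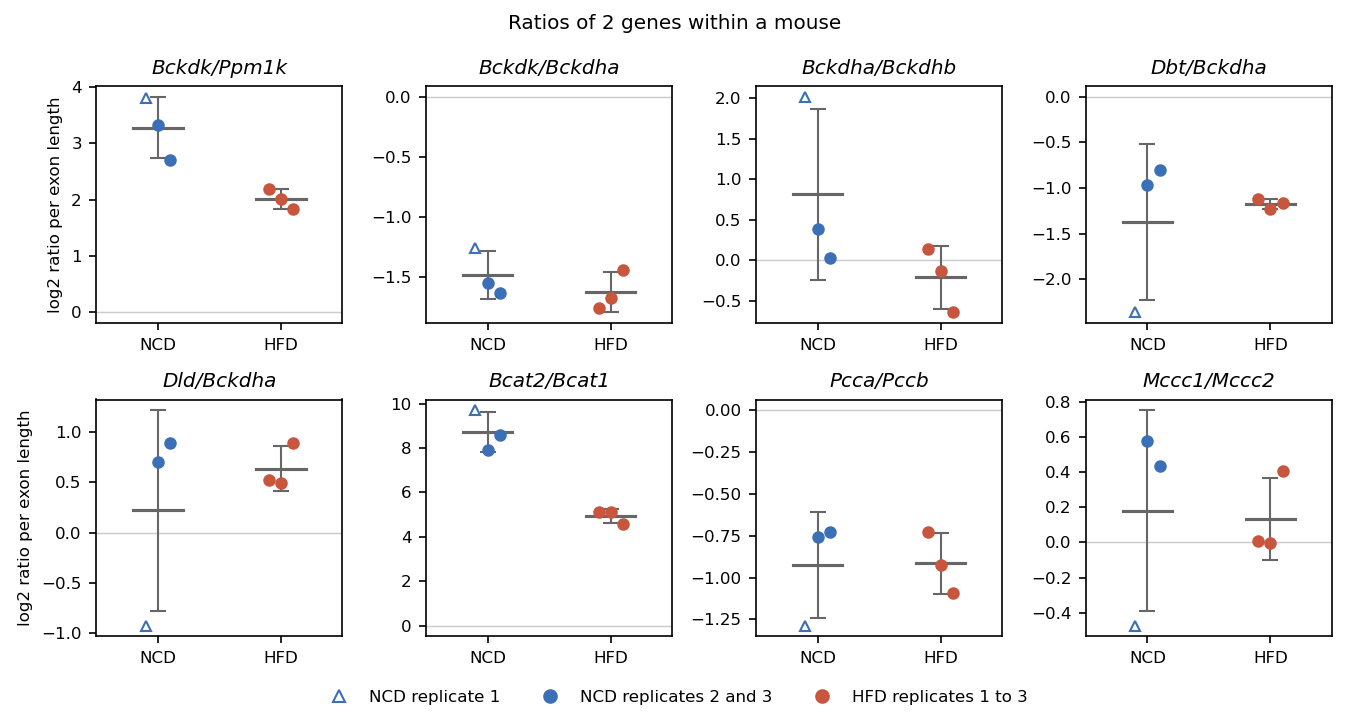
Log2 ratio of 2 genes per exon length within each mouse (y axes, 0 means equal) for 8 pairs by diet, with mean and SD of 3 mice; open triangles mark NCD replicate 1. Only Bckdk/Ppm1k and Bcat2/Bcat1 separate the diets in all 6 mice, and NCD replicate 1 lies apart from the other chow mice in most of the other pairs.

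The other genes of the pathway were taken from 7 lists of 27 genes that cover uptake, partners of BCKDH, each branch and regulators. With 6 mice 5 of the 27 fell, 1 rose and 21 were not called, beside 1.9% lower and 5.58% higher over all genes. Without NCD replicate 1, 17 fell, 3 rose and 7 were not called, beside 10.1% lower and 10.7% higher over all genes. The genes that rose were thus near the share over all genes. The median log2 fold change of the 27 was -0.67 with 6 mice and -0.83 without NCD replicate 1, smaller in size than that of the 10 genes in both fits. Scaling to the adipocyte markers without NCD replicate 1 gave a median of -0.15 for the 27. It left 4 called lower and 4 higher, beside 439 lower and 3887 higher of 15510 genes.

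In the leucine branch, Mccc2, the beta subunit that pairs with Mccc1, fell from 73.6, 95.1 and 123 CPM to 38.5, 43.1 and 25.8 CPM (log2 fold change -1.44, adjusted p = 0.0375, edgeR). Auh, the hydratase of the following step, was called by edgeR without NCD replicate 1 and not with 6 mice (-0.64, adjusted p = 0.0323, edgeR).

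In the isoleucine branch 2 of 4 genes fell with 6 mice and all 4 without NCD replicate 1. Acadsb, the short/branched chain acyl-CoA dehydrogenase, fell from 235, 201 and 256 CPM to 97.3, 102 and 82.0 CPM, with NCD replicate 1 level with the other chow mice (-1.30, adjusted p = 0.0223, edgeR). Hsd17b10, a mitochondrial hydroxyacyl-CoA dehydrogenase, fell by 1.01 on the log2 scale (adjusted p = 0.0473, edgeR). Echs1, enoyl-CoA hydratase, and Acat1, the acetoacetyl-CoA thiolase, fell without NCD replicate 1 by 1.78 and 1.00 on the log2 scale (adjusted p = 0.00659 and 0.0137, edgeR).

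In the valine branch edgeR called 0 of 3 genes with 6 mice (3 at an unadjusted p under 0.05, and 2 called by DESeq2), and all 3 fell without NCD replicate 1. They were Acad8, isobutyryl-CoA dehydrogenase (-0.57, adjusted p = 0.0456, edgeR), Hibadh, which oxidises the product of Hibch (-1.06, adjusted p = 0.0159, edgeR), and Aldh6a1, the semialdehyde dehydrogenase that ends the branch (-1.74, adjusted p = 0.0244, edgeR). Aldh6a1 was at 276, 360 and 568 CPM on NCD and 168, 161 and 85.3 CPM on HFD, without overlap.

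Beyond propionyl-CoA carboxylase, Mmut, the methylmalonyl-CoA mutase, fell in both fits, from 121, 145 and 181 CPM to 71.5, 61.7 and 45.0 CPM (-1.33, adjusted p = 0.0352, and -1.45, adjusted p = 0.0125, edgeR). Mmab, which makes its adenosylcobalamin cofactor, was called without NCD replicate 1 (-0.64, adjusted p = 0.0285, edgeR). Mcee and Mmaa were called in neither fit (-0.54 and -0.56 with 6 mice).

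Of 7 genes of uptake and cytosolic transamination, 1 was called higher and 0 lower with 6 mice, and 3 higher and 1 lower without NCD replicate 1. Slc43a2, a plasma membrane carrier of large neutral amino acids, was at 17.2, 33.8 and 26.8 CPM on NCD and 86.2, 71.8 and 101 CPM on HFD (1.74, adjusted p = 0.0271, edgeR). Slc7a8, another such carrier, was at 78.1 CPM in NCD replicate 1, 26.5 and 19.4 CPM in the other chow mice and 82.6, 76.9 and 110 CPM on HFD, and it rose without NCD replicate 1 (1.98, adjusted p = 0.00765, edgeR). Bcat1 went from 0.426, 2.01 and 1.81 CPM to 6.07, 6.16 and 7.46 CPM, which was not called with 6 mice (2.2, adjusted p = 0.0685, edgeR) and was without NCD replicate 1 (1.80, adjusted p = 0.00891, edgeR). Slc25a44, the mitochondrial BCAA carrier, fell in that fit (-0.88, adjusted p = 0.0139, edgeR). Slc7a5, Slc3a2 and Slc43a1 were called in neither fit (-3.18, 0.18 and 0.14 with 6 mice, -0.83, 0.54 and -0.22 without NCD replicate 1). Slc7a5 was at 325 CPM in NCD replicate 1, 39.4 and 10.3 CPM in the other chow mice and 13.5, 11.8 and 16.2 CPM on HFD. The summed macrophage and stromal levels given above were also higher on HFD, and their part in the higher Slc43a2, Slc7a8 and Bcat1 was not tested.

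Of 4 regulators, Klf15, a transcription factor known for its control of amino acid catabolism, fell with 6 mice, from 79.9, 85.9 and 107 CPM to 31.3, 28.3 and 13.7 CPM (-1.90, adjusted p = 0.0320, edgeR). The other three were called lower by edgeR without NCD replicate 1 and not with 6 mice, where limma voom with sample quality weights called all 4 regulators lower (beside 18.0% of all genes). They were Pparg, the master regulator of adipocytes (-1.11, adjusted p = 0.0123, edgeR), Ppargc1a, a coactivator of mitochondrial genes (-2.00, adjusted p = 0.0309, edgeR), and Esrra, a nuclear receptor of energy metabolism (-0.46, adjusted p = 0.0387, edgeR).

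**Figure D3:**
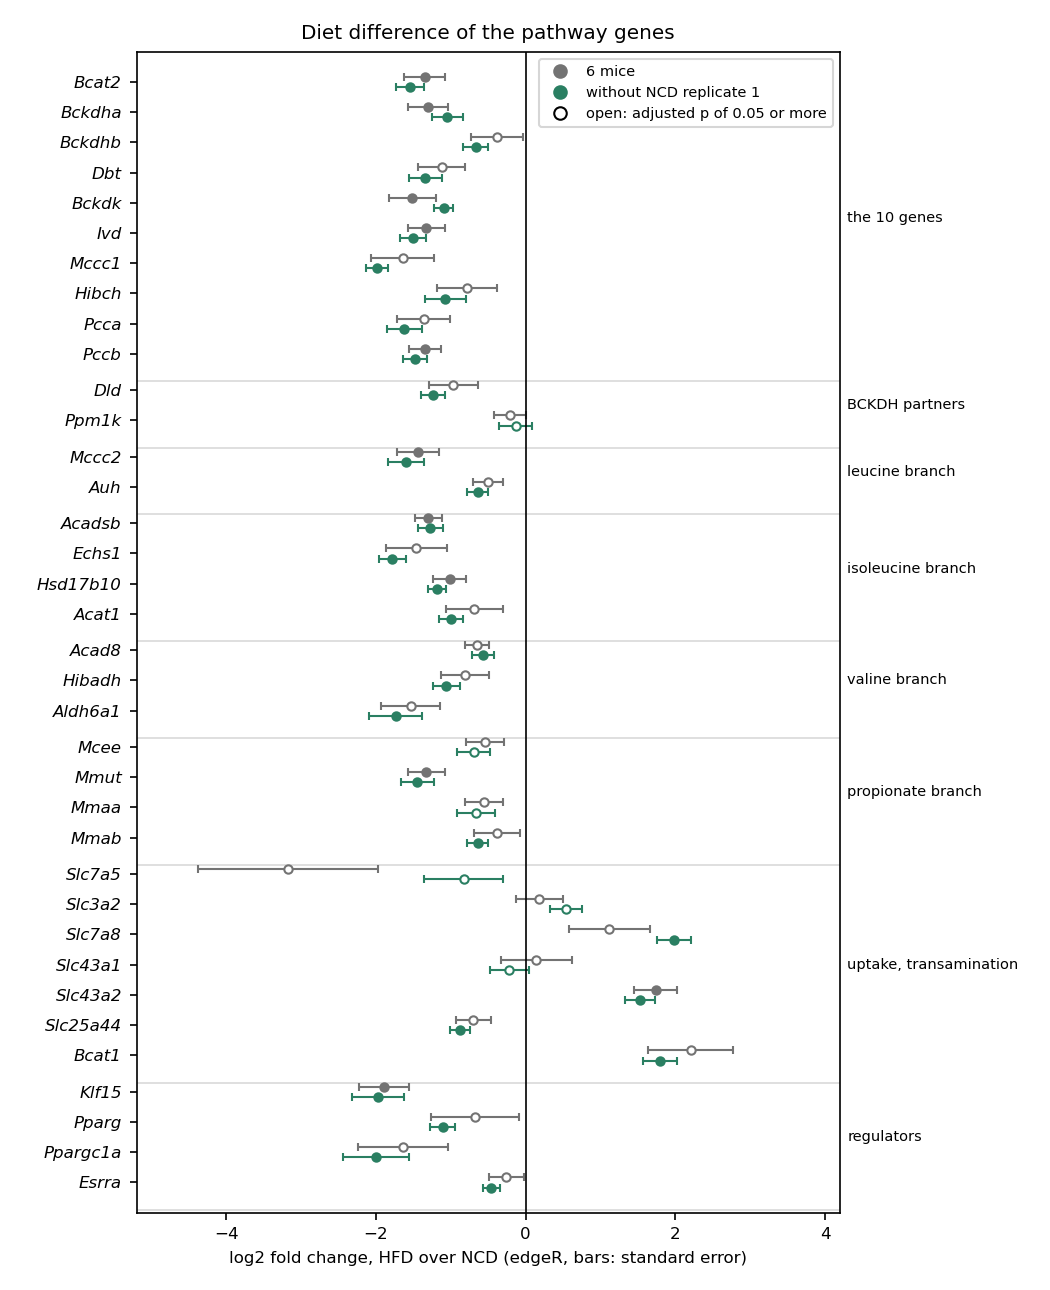
Log2 fold change (HFD over NCD, x axis) with standard error from edgeR for the 10 catabolism genes and other genes of the pathway lists, with 6 mice (grey) and without NCD replicate 1 (green); filled points passed an adjusted p of 0.05. The 10 genes and most enzymes lie left of 0, Ppm1k lies near 0, and Slc43a2, Slc7a8 and Bcat1 lie to the right.

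Markers of adipocytes and genes of mitochondria were compared in the same way. Of 10 adipocyte markers edgeR called 0 with 6 mice (0 at an unadjusted p under 0.05, 0 called by DESeq2 and 3 by limma voom, median log2 fold change -0.42), and 3, Plin1, Lipe and Cebpa, were called lower without NCD replicate 1 (median -0.85). The list was mixed, with 7 of 10 lower in fitted sign with 6 mice and 8 without NCD replicate 1. Single markers ran from -1.48 for Lpl to 1.25 for Lep with 6 mice, and from -1.93 to 0.78 for the same genes without NCD replicate 1. Of 8 mitochondrial genes outside the pathway edgeR called 0 with 6 mice (3 at an unadjusted p under 0.05, 3 called by DESeq2 and 7 by limma voom, median -0.48) and 6 were called lower without NCD replicate 1 (median -0.60), among them citrate synthase Cs (-1.50, adjusted p = 0.00686, edgeR). Their summed level was 1233 CPM in NCD replicate 1, 2201 and 2411 CPM in the other chow mice and 1116 to 1262 CPM on HFD. The 10 catabolism genes summed to 951, 1193 and 1487 CPM on NCD and 575, 543 and 435 CPM on HFD.

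Within a mouse, the mean log2 level of the 10 genes minus that of the adipocyte markers was -2.05, -3.59 and -3.64 in NCD replicates 1 to 3 and -4.39, -4.21 and -4.07 in HFD replicates 1 to 3. The difference between the diets was -1.13, and -0.60 without NCD replicate 1, when the level is taken relative to the adipocyte markers. The single genes ranged from -1.46 for Mccc1 to -0.25 for Bckdhb, and without NCD replicate 1 from -1.25 to 0.08 for the same genes. For 9 of the 10, all but Bckdhb, the diets did not overlap on this scale in either set of mice. The share of all genes that did so on this scale was not computed. NCD replicate 1 had the lowest mean log2 level of the markers (8.46, against 9.49 to 10.8 in the other mice), which raises any gene on this scale in that mouse. Minus the mean of the mitochondrial genes, the 10 genes stood at -0.41, -0.53 and -0.37 on NCD and -0.97, -0.95 and -1.27 on HFD, a difference of -0.62, and -0.61 without NCD replicate 1. On that scale 9 were lower on HFD and 8 did not overlap, again with no share over all genes computed. Bckdhb differed by 0.25 (0.07 without NCD replicate 1), and Hibch overlapped. These ratios are descriptions and carry no test.

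**Figure D4:**
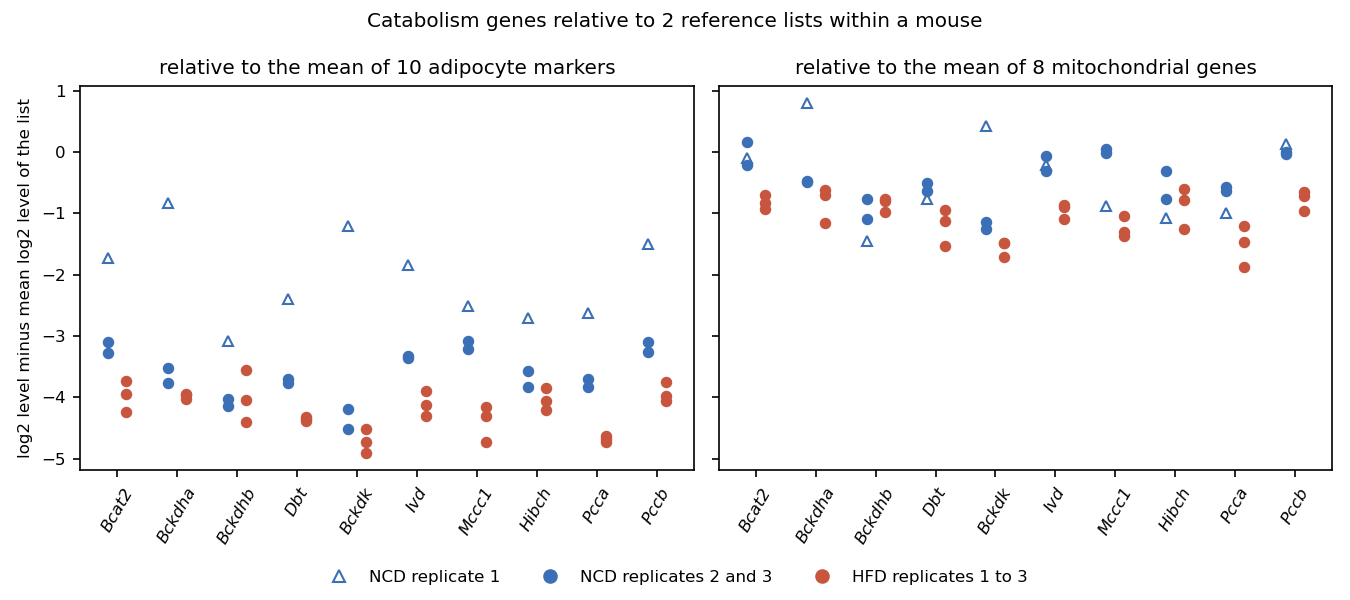
Log2 level of each of the 10 genes minus the mean log2 level of 10 adipocyte markers (left) or 8 mitochondrial genes (right) in each mouse, blue for NCD, red for HFD and open triangles for NCD replicate 1. The HFD points lie below the NCD points for 9 genes on the left and 8 on the right, and the share of all genes that do so was not computed. NCD replicate 1 stands above every other mouse on the left. On the right it lies outside the range of the other chow mice for 8 genes, below them for 5 and above them for 3.

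Outside the lists, the genes whose profile over the 6 libraries was most like the median of the 10 were Uqcrc2, Adk, Apoo, H1f10 and Mcrip2, with root mean square differences of 0.0637 to 0.106 on the log2 scale. Among the 10, Ivd was nearest to that median (0.0729) and Bckdk farthest (0.592), with Bckdhb (0.516) and Bckdha (0.470) next. Uqcrc2, a core protein of respiratory complex III, was at 154, 241 and 276 CPM on NCD and 106, 99.0 and 82.1 CPM on HFD. The likeness is a description over 6 libraries that include the diet difference.

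Promoter windows of 250 bases before to 50 after the start site were taken from RefSeq (GRCm38.p6) for 9 of the 10 genes. The window of Mccc1 and a window of Bckdhb are shown because these genes had the largest and the smallest difference. In the sequences, 5′ to 3′ on the strand of the gene, capitals mark GGGCGG (a GC box), CCAAT and CACCC (a box that KLF factors can bind), each searched on both strands, and neighbouring motifs can share bases.
Mccc1, chr3:36000629-36000928, minus strand: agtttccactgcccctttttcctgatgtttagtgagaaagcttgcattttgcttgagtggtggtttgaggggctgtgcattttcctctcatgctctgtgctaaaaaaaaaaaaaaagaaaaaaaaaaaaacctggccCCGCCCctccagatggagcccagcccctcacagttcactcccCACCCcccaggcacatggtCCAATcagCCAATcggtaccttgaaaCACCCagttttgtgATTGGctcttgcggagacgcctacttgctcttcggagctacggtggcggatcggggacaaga
Bckdhb, chr9:83924887-83925186, plus strand: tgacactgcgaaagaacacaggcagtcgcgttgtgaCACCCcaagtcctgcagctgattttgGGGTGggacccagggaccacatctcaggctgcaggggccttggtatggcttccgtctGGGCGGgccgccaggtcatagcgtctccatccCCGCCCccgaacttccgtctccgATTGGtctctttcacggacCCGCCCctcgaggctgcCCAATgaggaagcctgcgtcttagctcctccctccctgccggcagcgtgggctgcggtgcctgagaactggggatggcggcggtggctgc
Both printed windows held all 3 motifs. Bckdhb has another window (chr9:83948531-83948830), not printed, which held CCAAT and neither GGGCGG nor CACCC. A gene is counted below if any of its windows held the motif, over 12 windows of the 9 genes. GGGCGG was in windows of 4 of the 9 genes (44.4%), beside 58.1% of 14900 genes with a window. CCAAT was in 5 of 9 (55.6%, beside 41.9%) and CACCC in 6 of 9 (66.7%, beside 66.1%). The nuclear receptor motif DR1 was in 0 of 9 (0.0604% of all genes), and TCAAGGTCA, which estrogen-related receptors can bind, was in 0 of 9 (0.369%). These shares are counts of letters in short windows, which hold only a few cases among 9 genes.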

How the data were processed

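The authors deposited counts of reads per gene for 6 gWAT libraries (TRIzol extraction, TruSeq stranded mRNA kit), listed by NCBI gene identifier, not normalized. The submitters' processing notes name bcl2fastq 2.20.0, Trimmomatic, HISAT2 2.1.0, StringTie 1.3.4d, DESeq2, mm10 and GRCm38, without their roles. For the assignment of reads to genes, including any use of strand, settings were not stated in these sources. The column of HFD replicate 3 carries another number in its name, and was matched through the sample's label. Columns with no sample numbered 0.

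Symbols, coordinates and promoter windows were from RefSeq GRCm38.p6, the assembly the notes name, and 19742 of 19790 identifiers were paired with a symbol. Exon lengths were unions of GENCODE vM21 basic exons, found for 17793 genes, and genes without one held 1.05% of the counts. Genes passing filterByExpr (count of at least 10, total of at least 15) were TMM-scaled and tested in edgeR 4.0.16 (R 4.3.3) with glmQLFit and glmQLFTest, with Benjamini-Hochberg adjustment over all genes tested and a threshold of 0.05. The common biological coefficient of variation was 0.424. The 10 genes had 1348 to 11156 counts per library, so counting error was small beside the spread between mice. Replicates differed far beyond sampling noise. The scripts were tested on simulated data. Ratios were compared with exact permutation tests over mice, and levels relative to a list used log2(CPM + 0.5). Alternatives used DESeq2 1.42.0, limma 3.58.1 (voom), other scalings, no filter, a replicate block, and leaving out mice. The 10 genes, the lists and the rule for named genes (all 10, list genes called in either fit or paired in a ratio, and the 5 genes of most similar profile) were chosen with earlier results of these data known. Of the pathway lists, Mcee, Mmaa, Slc7a5, Slc3a2 and Slc43a1 are named beyond this rule. A gene of the pathway lists is counted in the totals but not reported here by name. Protein sequences were not used here.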

Additional observations from a re-analysis of the deposited data

How the results depend on the processing

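Of the 10 genes, 5 were called with 6 mice in edgeR, and median-of-ratios scaling or removal of the seminal vesicle genes kept this count. Counts of calls among the 10 genes, the 27 other pathway genes and all genes were 0, 1 and 959 with total counts alone, 0, 0 and 22 with scaling to the adipocyte markers, 2, 5 and 803 with no filter, 8, 14 and 3904 with DESeq2, 9, 21 and 5570 with limma voom and sample quality weights, and 1139 over all genes as reported. Leaving out 1 mouse gave 0 to 10 of the 10 genes, 0 to 20 of the 27 and 2 to 3234 of all genes, with the highest counts without NCD replicate 1 (weight 0.134 in voom) and 0, 0 and at most 7 without any other mouse. The labels gave no pairing of mice by replicate number. Correlations of same-numbered mice were -0.056, -0.046 and 0.010, and those of different-numbered mice -0.054 to 0.076. These values showed no sign of pairing, and a shared cage or batch was not tested beyond them. With the replicate block the counts were 0, 0 and 12. Alternatives chosen after the data were seen all left out NCD replicate 1. They gave 8, 17 and 3498 calls with total counts alone, 10, 20 and 3226 with median-of-ratios scaling, 1, 8 and 4326 with adipocyte scaling (439 lower and 3887 higher, against 289 and 850 as reported), 10, 21 and 5393 with DESeq2, 8, 19 and 3865 also without HFD replicate 1, 7, 14 and 1712 without HFD replicate 2, and 8, 16 and 1912 without HFD replicate 3. Of the 8 pathway calls with adipocyte scaling, 4 were lower and 4 higher, and the median log2 fold change of the 27 was then -0.15. The median log2 fold change of the whole table was 0.45 under total counts and -0.39 under adipocyte scaling, or 0.23 and 0.76 without NCD replicate 1, beside medians of -0.88, -1.45, -1.20 and -0.69 for the 10 genes. Without NCD replicate 1, adipocyte scaling turned the sign of Bckdhb (0.12), Acad8 (0.19), Auh (0.11), Esrra (0.29), Mmab (0.078) and Ppm1k (0.65). Total counts alone turned Esrra (0.15), Mmab (0.0030) and Ppm1k (0.32), and Ppm1k also turned with voom (0.084) and with total counts without NCD replicate 1 (0.074). Leaving out 1 mouse, the log2 ratio differences were -1.55 to -1.01 for Bckdk/Ppm1k, -4.21 to -3.31 for Bcat2/Bcat1, -0.24 to -0.03 for Bckdk/Bckdha, -1.42 to -0.42 for Bckdha/Bckdhb, -0.29 to 0.49 for Dbt/Bckdha, -0.16 to 0.75 for Dld/Bckdha, -0.17 to 0.11 for Pcca/Pccb and -0.37 to 0.15 for Mccc1/Mccc2, and the last 4 changed sign. The cause of the lost calls and of the changed signs was not tested. The single genes tallied were the 10 and the 21 pathway genes called in either fit or paired in a ratio. Over the 21 alternatives, 392 of their values kept their sign and side of the threshold, 145 passed it newly, 103 no longer did and 11 changed sign. Mcee, Mmaa, Slc7a5, Slc3a2 and Slc43a1 were outside this tally. With 1348 counts or more for each of the 10 genes in every library, counting error was small beside the spread between mice.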
